A study of Macaca mulatta with 12 samples.

Results

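The genes described here build or regulate cilia, or mark the ependyma and choroid plexus that line and fill the brain ventricles. They were measured in the dorsal raphe of female rhesus monkeys under 4 hormone treatments. They were chosen by symbol in the probe-to-gene table. All symbols beginning with CFAP, DNAH, DNAI, DNALI, RSPH, SPAG or TEKT, or with DRC, IFT or BBS and a number, were taken, together with FOXJ1, RFX2, RFX3, TTR, KL, AQP1, FOLR1 and CLIC6. TUBA1A, a tubulin of neurons as well as of cilia, was left out. The rule found 90 genes on 140 probe sets, out of 12993 named genes. No probe set carries the symbol RFX2, TTR or KL in that table, so those 3 genes were not analysed here.

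A cilium is built on a ring of microtubule doublets, the axoneme. Ependymal cells carry tufts of motile cilia whose axonemes hold dynein arms, radial spokes, a nexin-dynein regulatory complex and a central apparatus, and the transcription factor FOXJ1 switches on the genes for these parts. Most neurons and glia carry a single primary cilium, which has no dynein arms but needs the same intraflagellar transport (IFT) trains and the BBSome, the coat complex that carries membrane proteins out of the cilium. The choroid plexus epithelium, which secretes cerebrospinal fluid, is known for transthyretin (TTR), klotho (KL), the folate receptor FOLR1, the water channel AQP1 and the chloride channel protein CLIC6.

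Each of the 12 arrays held total RNA from the dorsal raphe of 1 animal, with 3 animals in each of 4 groups. Titles of the placebo arrays hold OVX, which was taken to mean that these animals were ovariectomized. The other animals received estrogen, estrogen plus progesterone, or progesterone from Silastic capsules under the skin for 1 month, and their labels give no such code. An implant time of 1 month was recorded for all 12 animals, placebo included. The progesterone arrays are titled with the code EP but described with P, and were taken as progesterone alone. Ages and capsule doses are not given in the sources used here. Values below are log2 intensities after quantile normalization, and a difference is a difference of group means on that scale. In bulk tissue, fewer cells of a type and less RNA per cell cannot be told apart.

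Array medians lay between intensities of 71.1 and 98.7, and the rank correlation between any pair of arrays was 0.915 to 0.959. The first principal component (23.6% of the variance) set the first placebo, first estrogen and first estrogen plus progesterone arrays (-51.6, -44.9 and -44.0) apart from the other 9 (-1.64 to 29.0). The elongation factor 1 alpha control, a measure of RNA integrity and labelling, had a log2 ratio of its 3′ to its 5′ probe set of -0.37, -0.31 and -0.33 in the progesterone animals and -0.08 to 0.74 in the other 9. Among those 9 it was 0.74 in the first estrogen array and 0.65 in the first estrogen plus progesterone array. In the rest it was at most 0.22, with -0.035 in the first placebo array. Of the 7 serotonin neuron markers listed, only SLC18A2, FEV, GCH1 and TPH2 had a probe set with their symbol, and all 4 passed the filter on low values. Their mean level was 7.77 to 8.70 over the progesterone animals and 8.48 to 9.25 over the other 9. The 4 tested markers of cerebellar neurons, a tissue near the raphe, had mean levels of 8.90 in the second estrogen animal and 8.28 in the second estrogen plus progesterone animal, against 7.39 to 7.84 in the other 10. Whether these array-wide features contributed to the results below was not tested.

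The levels set how many members could be compared. A probe set was tested where its 12-array mean was at or above a log2 of 6.31, the median of such means, close to the brightest of the array's 17 Tag control probe sets (6.41). This left 54 genes on 66 probe sets, and 36 genes were below the filter. All 6 BBS genes and 12 of 14 IFT genes passed, against 19 of 34 CFAP, 6 of 14 dynein arm, 2 of 5 RSPH, 2 of 3 DRC, 3 of 6 SPAG and 1 of 3 TEKT genes. The brightest member was IFT74 (10.89), a tubulin-binding subunit of the IFT-B train, followed by CFAP251 (10.18), a protein at the base of a radial spoke. The brightest dynein gene was DNAI1 (7.35), an intermediate chain of the outer arm. DNAH5 (6.24) and DNAH9 (6.27), heavy chains of the outer arm, and its other intermediate chain DNAI2 (6.30) lay just under the filter, and DNAH17 (4.22), RSPH14 (3.07), TEKT3 (4.59), DRC12 (4.16), SPAG11B (3.04), IFT56 (6.07) and CFAP263 (2.88) were also below it. These levels belong to different probe sets and do not rank the transcripts. RFX3, a transcription factor that acts with FOXJ1, had a mean of 3.44. FOLR1 had a mean of 4.97, with a range of 3.92 to 6.52 over the 12 animals, and was not tested.

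**Figure D1:**
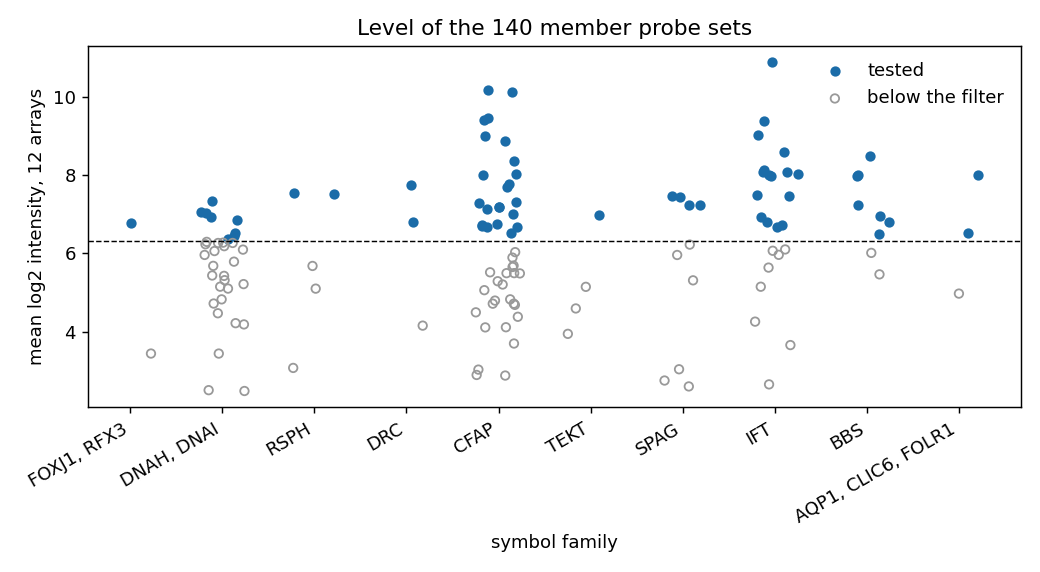
Mean log2 intensity over 12 arrays (vertical axis) of each of the 140 member probe sets, by symbol family (horizontal axis); filled points passed the filter at 6.31, drawn as a dashed line, and open points did not. All BBS and most IFT genes have a probe set above the line, while most dynein arm probe sets lie below it.

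FOXJ1 and the axoneme genes nearest to it in pattern spread widely among animals of the same treatment. FOXJ1 read 6.46, 6.82 and 6.91 in the placebo animals, 7.03, 7.36 and 6.83 with estrogen, 6.39, 7.63 and 6.69 with both hormones, and 6.58, 5.65 and 6.92 with progesterone. The lowest value belonged to the second progesterone animal and the highest to the second estrogen plus progesterone animal, and the groups overlapped. FOXJ1 differed from placebo by 0.35 ± 0.36 (SE) with estrogen, 0.18 ± 0.36 with both hormones and -0.34 ± 0.36 with progesterone (n = 3 per group), with limma adjusted p of 0.9997, 0.9988 and 0.8188.

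RSPH1, a radial spoke head protein, read 7.42, 7.81 and 7.73 in placebo, 7.29, 7.96 and 7.72 with estrogen, 7.15, 8.30 and 7.31 with both hormones, and 7.21, 6.48 and 7.87 with progesterone. The same progesterone animal was lowest, and the same estrogen plus progesterone animal highest. For TEKT1, a tektin filament protein of the doublet wall, the values were 7.01, 6.85 and 7.05 in placebo, 7.03, 7.18 and 6.89 with estrogen, 6.91, 7.5 and 7.05 with both hormones, and 6.69, 6.29 and 7.21 with progesterone. DRC3 of the nexin-dynein regulatory complex read 7.88, 7.82 and 8.46, then 7.10, 8.51 and 7.93, then 7.35, 8.75 and 7.36, then 7.69, 6.13 and 8.13 in the same order. DRC1, the scaffold subunit of that complex, read 6.14, 6.90 and 7.0, then 6.60, 7.90 and 7.01, then 6.66, 7.22 and 7.30, then 6.99, 4.70 and 7.25. In each of these 4 genes the second progesterone animal held the lowest value while the third was above the placebo mean. These genes were shown because they followed FOXJ1, so the animals they share at the ends are fixed in large part by that choice. RSPH9, the other radial spoke head gene tested, read 7.45, 7.21 and 7.64 in placebo and 7.64, 6.91 and 8.05 under progesterone (0.10 ± 0.30, SE). Differences under progesterone were -0.46 ± 0.36 for RSPH1, -0.24 ± 0.23 for TEKT1, -0.74 ± 0.54 for DRC3 and -0.37 ± 0.58 for DRC1 (SE), none past the threshold. The wide interval of DRC1 (-1.63 to 0.89, 95%) came with an SD of 1.40 among its progesterone animals.

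**Figure D2:**
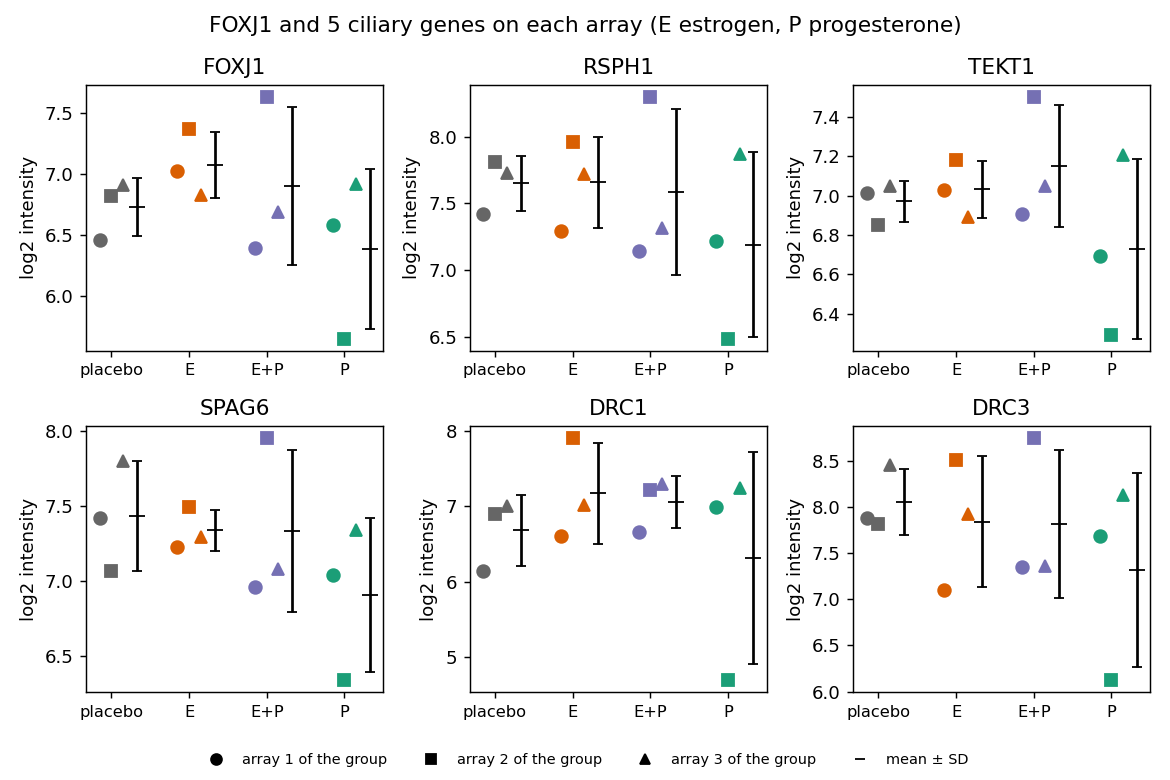
Log2 intensity (vertical axes) of FOXJ1, RSPH1, TEKT1, the dimmer SPAG6 probe set, DRC1 and DRC3 in each of 12 animals, by treatment (horizontal axes; E estrogen, P progesterone); symbols give the array number in its group and bars the mean ± SD (n = 3). The square in the progesterone group (5.65 for FOXJ1) is the lowest point in all 6 panels, and the square in the estrogen plus progesterone group is the highest in all but DRC1; the genes were picked for following FOXJ1, and the brighter SPAG6 probe set, not drawn, did not (r = -0.22).

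Counted over the 54 member genes on their brightest probe sets, 23 (42.6%) had their lowest value in the second progesterone animal, which held the lowest value of 12.6% of all 9305 named genes tested. The second estrogen plus progesterone animal held the highest value of 14 members (25.9%) and of 7.74% of named genes. The median deviation of the members from their own 12-array means was -0.28 in the former animal and 0.15 in the latter, while the medians over all named genes were 0.0003 and 0.03. The second progesterone animal had a 3′ to 5′ control of -0.31, beside -0.37 and -0.33 in the other progesterone animals. The part of RNA integrity in its low values was not tested. The animal was picked out after its values were seen.

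Under estrogen alone the members were split evenly against placebo. Of 54 genes, 27 were higher and 27 lower, with a median of 0.0019, beside -0.01 over all named genes. No member passed an adjusted p of 0.05 (limma, Benjamini-Hochberg over 26383 probe sets), and 0% of all probe sets did. At an unadjusted p under 0.05, 2 of 66 member probe sets were counted (3.03%), beside 2.65% of all. In 4 of 66 (6.06%) the 3 estrogen values lay outside the placebo range, beside 7.54% of all. The dimmer probe set of BBS9, a BBSome subunit, had the lowest p of any member (0.00998, adjusted 0.9997). It read 6.28, 5.82 and 6.04 in placebo and 7.53, 6.61 and 6.67 under estrogen, with no overlap, a difference of 0.89 (95% interval 0.26 to 1.52). The brighter BBS9 probe set differed by 0.05, so the probe sets of this gene disagreed. SPAG6, a central apparatus protein, was lower on its brighter probe set by -0.57 (-1.10 to -0.05, adjusted p = 0.9997) and by -0.09 on the other. CFAP36 (0.28) was higher in each of 3 animals, and IFT52 (0.35), a core subunit of IFT-B, was higher on average. DNAH1, an inner arm heavy chain, was at -0.42 and CFAP69 at -0.30.

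Estrogen plus progesterone gave a like picture against placebo. Of the members 26 were higher and 28 lower (median -0.03, beside -0.01 over all named genes), and 0 passed the threshold, as did 0% of all probe sets. At an unadjusted p under 0.05 there were 4 of 66 (6.06%), beside 3.85% of all, and 4 of 66 had groups that did not overlap, beside 10.5% of all. The second IFT27 probe set had the lowest p (0.0166, adjusted 0.9988). IFT27, a small GTPase of IFT-B, read 7.89, 8.10 and 8.12 in placebo and 8.28, 9.01 and 8.42 under both hormones, a difference of 0.54 (0.12 to 0.95), while its brighter probe set gave 0.22. BBS10, a chaperonin-like protein needed to assemble the BBSome, read 8.31, 8.37 and 8.22 in placebo and 7.56, 7.90 and 7.44 under both hormones, a difference of -0.67 (-1.30 to -0.04, adjusted p = 0.9988). Other BBS genes were lower too, 5 of 6 in all, with a family median of -0.23. BBS7 (-0.48) was one of them and BBS4 (0.24) was the exception. IFT172, a large IFT-B subunit, was at 0.38, DNAH10, an inner arm heavy chain, at 0.47, and CFAP221, a central apparatus protein, at -0.45.

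Of the 3 comparisons with placebo, progesterone alone had the members' median farthest from 0, and that distance rested on 1 animal. Of the members 38 of 54 (70.4%) were lower than placebo, with a median of -0.17, beside 56.2% and -0.04 over all named genes. Without the second progesterone animal the count was 27 higher and 27 lower, and the median was -0.01. Without the third it was 42 lower, with a median of -0.27. No member passed the threshold, which 35 of 26383 probe sets (0.133%) did, and 4 of 66 (6.06%) had an unadjusted p under 0.05, beside 9.87% of all. Counting any probe set whose 3 progesterone values lay outside the placebo range gave 7 of 66 members (10.6%), beside 15.3% of all. In both counts the members' share was below that of all probe sets. Aligning array medians in place of quantile normalization moved the median of all named genes to -0.15, and the members then stood at -0.25 with 42 of 54 lower.

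CFAP20, a protein of the inner junction of the doublet, was the nearest to the threshold. It read 10.48, 10.30 and 10.37 in placebo and 9.92, 9.63 and 9.76 under progesterone, with estrogen at 10.15, 10.37 and 10.20 and both hormones at 9.94, 10.38 and 10.19. All 3 progesterone values lay below the placebo range, and the difference was -0.61 (-0.95 to -0.27, limma adjusted p = 0.2043). The dimmer CFAP20 probe set differed by -0.17 with overlapping values. DNAH1 read 7.48, 7.11 and 7.66 in placebo and 6.74, 6.50 and 6.92 under progesterone, without overlap, at -0.70 (-1.24 to -0.15, adjusted p = 0.4000). Axonemal doublet proteins CFAP107 (-0.63, adjusted p = 0.5009) and CFAP161 (-0.60, adjusted p = 0.5130) were also lower on average but overlapped placebo. IFT52 was the member with the lowest p among those higher, at 0.53 (0.06 to 1.01, adjusted p = 0.4583), and its other probe set gave 0.38. IFT25 (0.26) and IFT20 (0.18), both IFT-B subunits, were above placebo in each of 3 animals. IFT genes had a median of -0.01 with 7 of 12 lower, and the 19 CFAP genes had a median of -0.10 with 13 lower. Of the 6 dynein arm genes 4 were lower (median -0.24), and of the 6 BBS genes 5 (median -0.18).

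**Figure D3:**
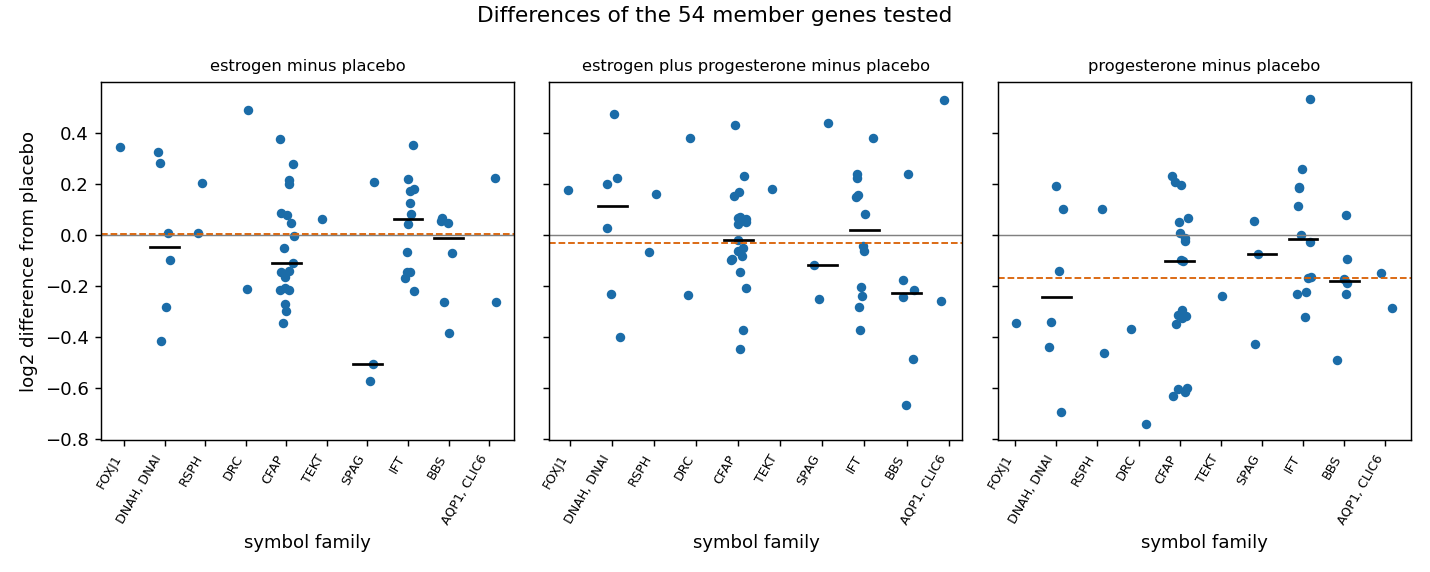
Log2 difference from placebo (vertical axes) of each of the 54 member genes tested, on the brightest probe set, by symbol family (horizontal axes) under estrogen, both hormones and progesterone; black bars are family medians where a family has over 2 genes and the dashed orange line is the median of all members. Under progesterone the dashed line lies at -0.17, against 0.0019 and -0.03 in the other panels.

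Adding progesterone to estrogen left 29 members higher and 25 lower than estrogen alone (median 0.02), with 0 past the threshold and 0% of all probe sets. Unadjusted p values under 0.05 were counted for 2 of 66 (3.03%), beside 2.98% of all, and 5 (7.58%) had groups that did not overlap, beside 8.09% of all. The second IFT27 probe set read 7.77, 7.97 and 7.98 under estrogen and was higher under both hormones by 0.67 (0.25 to 1.09, limma adjusted p = 0.9999). SPAG9, a scaffold protein of JNK signalling that carries the symbol but is no axonemal part, was higher by 0.94 (0.11 to 1.78, adjusted p = 0.9999), with 5.89 in the second estrogen animal against 7.10 and 7.23 in the others.

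Both hormones against progesterone alone placed 36 of 54 members higher (median 0.20, beside 0.03 over all named genes), and this comparison shares its progesterone animals with the one above. Without the second progesterone animal the median was 0.04 with 31 higher, and without the second estrogen plus progesterone animal it was 0.10 with 32 higher. Again 0 members passed, beside 0.0834% of all probe sets, and 6 of 66 (9.09%) had an unadjusted p under 0.05, beside 11.4% of all. Groups did not overlap in 9 (13.6%), beside 17% of all. IFT27 on its second probe set was at 0.75 (0.33 to 1.17, adjusted p = 0.1977), the lowest adjusted p of any member, with progesterone values of 7.67, 7.94 and 7.85 all below those under both hormones. DNAH10 read 7.05, 7.76 and 7.27 under both hormones and 6.78, 6.41 and 6.14 under progesterone, a difference of 0.91 (0.24 to 1.59, adjusted p = 0.3047). BBS4, a BBSome subunit, differed by 0.41 (adjusted p = 0.4138) and IFT25 by -0.46 (adjusted p = 0.3558), both without overlap.

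For the interaction of both hormones 7 of 66 member probe sets (10.6%) had an unadjusted p under 0.05, beside 6.4% of all, and 0 passed after adjustment, beside 0% of all. The second IFT27 probe set (0.88), SPAG6 (0.88), CFAP20 (0.55) and DNAH10 (1.01) were positive among these. IFT52 (-0.80), the dimmer BBS9 probe set (-1.06) and IFT25 (-0.64) were negative. The moderated F test over groups called 0.0758% of all probe sets and 0 members. The second IFT27 probe set had the lowest adjusted p of the members in the F test (0.4799). The unadjusted p of that test was under 0.05 in 2 member probe sets (3.03%), beside 7.54% of all. Differences were bounded only loosely: the 95% interval reached a median of 0.54 to either side of the difference between progesterone and placebo over the member probe sets.

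Neither choroid plexus member passed the threshold in any comparison. AQP1 read 8.27, 8.09 and 8.28 in placebo, 7.39, 8.07 and 8.37 under estrogen, 7.95, 8.16 and 7.74 under both hormones, and 7.87, 8.0 and 7.90 under progesterone. The progesterone values all lay below placebo, by -0.29 ± 0.22 (SE, adjusted p = 0.7343), and estrogen and both hormones were at -0.26 each. CLIC6 read 6.50, 6.39 and 6.25 in placebo, 7.02, 6.26 and 6.51 under estrogen, 7.21, 6.63 and 6.88 under both hormones, and 6.30, 5.84 and 6.55 under progesterone. Its values under both hormones lay above all placebo and all progesterone values, at 0.53 ± 0.24 over placebo (adjusted p = 0.9988) and 0.68 ± 0.24 over progesterone (adjusted p = 0.3270). Over the 12 animals AQP1 and CLIC6 had r = -0.46 (Spearman rho = -0.41, permutation p = 0.136 and 0.193, adjusted 0.407 and 0.577 over the 3 pairs tested). FOXJ1 and AQP1 had r = 0.04 (rho = 0.08, permutation p = 0.903 and 0.800, adjusted 0.903 and 0.800), and FOXJ1 and CLIC6 had r = 0.26 (rho = 0.14, permutation p = 0.412 and 0.667, adjusted 0.618 and 0.800). Without the 2 animals farthest from the median of the first gene named, the 3 values were -0.31, -0.11 and -0.38. With the first placebo, estrogen and both-hormone arrays left out they were -0.22, 0.29 and 0.56, so the sign of both FOXJ1 pairs depended on the arrays left in. Both genes are also known in other brain cells, and with TTR and KL not analysed and FOLR1 below the filter, the levels do not show choroid plexus tissue in the samples.

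Genes outside the symbol rule gave another view of the same structures. Of 45 further genes of the motile axoneme and dynein assembly, 16 were tested. Under progesterone 15 of 16 were below placebo (median -0.23), beside 56.2% of all named genes (median -0.04). Of the 16, 0 passed the threshold, and CCDC65 (0.48) was the 1 above placebo. Without the second progesterone animal 14 of 16 were below (median -0.18), so this list leaned on that animal less than the members did. CAPS, a calcium-binding protein abundant in ciliated cells, read 9.0, 9.19 and 9.56 in placebo and 8.61, 8.56 and 8.54 under progesterone (-0.68 ± 0.18, SE, adjusted p = 0.2271). DNAAF2, a cytoplasmic factor that preassembles dynein arms, read 7.66, 6.92 and 7.37 in placebo and 6.79, 6.29 and 6.76 under progesterone (-0.70 ± 0.21, adjusted p = 0.2787). In CAPS, DNAAF2 and DNAL4 (-0.42), alone among the 16, all 3 progesterone animals were below all 3 placebo animals. Among all probe sets, 15.3% had 3 progesterone values outside the placebo range, either way. Both hormones exceeded progesterone alone in 15 of 16 genes, beside 5040 of 9305 named genes. Without the second estrogen plus progesterone animal the count was 8 of 16.

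The other lists of ciliary and choroid plexus genes also held 0 genes past the threshold in any contrast between 2 groups, and differences between lists were not tested. Under progesterone, of 22 primary cilium, transition zone and trafficking genes tested 11 were above and 11 below placebo (median -0.01), and of 16 further choroid plexus genes 8 were above and 8 below (0.01). Of 4 regulators of motile ciliogenesis (E2F4, TP73, E2F5 and ULK4) 3 were below (-0.10). The choroid plexus list held TRPM3, an ion channel, which read 6.84, 7.03 and 7.82 in placebo, 7.42, 6.89 and 6.11 under estrogen, 7.65, 7.40 and 7.40 under both hormones and 9.12, 9.0 and 9.22 under progesterone. All 3 progesterone values of TRPM3 lay above those of the other 9 animals, by 1.89 ± 0.31 over placebo (SE, limma adjusted p = 0.0507) and with -1.63 ± 0.31 for both hormones against progesterone (adjusted p = 0.0939). SULF1 of the same list went the other way, with 8.76, 8.84 and 8.36 in placebo and 7.68, 8.23 and 7.99 under progesterone. Its groups did not overlap, and the difference was -0.69 ± 0.22 (SE, limma adjusted p = 0.3188). Under estrogen 13 of the 16 choroid plexus genes (81.2%) were below placebo (median -0.19), beside 51.1% of all named genes, and 10 of 16 were without the first placebo animal. Of the primary cilium genes 15 of 22 were below under estrogen (median -0.08), and 9 of 22 without the 3 arrays apart. Among the markers of other cells, the 4 serotonin neuron markers tested were all below placebo under progesterone (median -0.47, 0 past the threshold). The 8 microglia markers had a median of 0.09, the 5 astrocyte markers -0.02, the 4 neuron markers 0.03, the 3 oligodendrocyte markers -0.10, the 3 vascular markers -0.12 and the 4 leptomeningeal markers 0.07, with none past the threshold. The part of the serotonin markers and of the 3′ to 5′ control in the ciliary values was not tested.

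**Figure D4:**
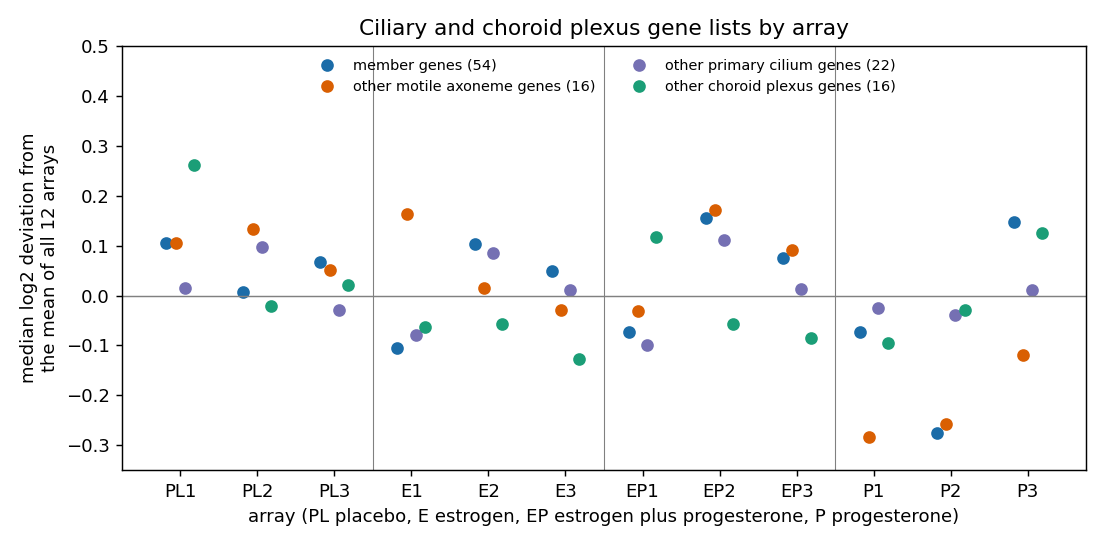
Median log2 deviation of each gene list from its own mean over 12 arrays (vertical axis) on each array (horizontal axis; PL placebo, E estrogen, EP both hormones, P progesterone); each point is 1 list on 1 array. The members reach their lowest median, -0.28, on P2. The further motile axoneme genes are below 0 on P1 (-0.28), P2 (-0.26) and P3 (-0.12), and also on E3 and EP1 (-0.03 each).

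Across all 12 animals, the members most like FOXJ1 were RSPH1, TEKT1, 1 probe set of SPAG6, CFAP298, DRC3, DRC1 and IFT122. RSPH1 had r = 0.91 with FOXJ1 (rho = 0.80, permutation p = 8e-05, adjusted p = 0.301 over 26382 probe sets) and stood second of all probe sets. TEKT1 followed at r = 0.89 (rho = 0.78, permutation p = 0.00051, adjusted p = 0.316, rank 9), then the dimmer SPAG6 probe set at 0.85 (rho = 0.76), CFAP298, a factor of dynein arm assembly, at 0.83 (rho = 0.71), DRC3 at 0.83 (rho = 0.69), DRC1 at 0.83 (rho = 0.62) and IFT122, an IFT-A subunit, at 0.81 (rho = 0.66). The brighter SPAG6 probe set had r = -0.22 (rho = -0.36, permutation p = 0.501, adjusted p = 0.841), so the probe sets of this gene disagreed. The 5 that followed TEKT1 had permutation p of 0.00118, 0.00119, 0.00122, 0.00208 and 0.00161 for r and adjusted p of 0.316 each. None of the 26382 probe sets had an adjusted p under 0.05 for r or for rho. All of these values share the same 12 arrays, and likeness across animals was examined after the values were seen.

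By gene, 13 of 53 members (24.5%) were among the 5.01% of 9304 named genes with the highest r (above 0.62). They were 7 of 19 CFAP genes, both tested genes with an RSPH symbol, both with a DRC symbol, TEKT1 and 1 of 12 IFT genes. None of the 6 BBS, 6 dynein arm, 3 SPAG or 2 choroid plexus genes was among them on the brightest probe set. The medians were 0.33 over the members, 0.02 over all named genes, 0.46 over CFAP, 0.05 over IFT and 0.22 over BBS genes. Marker lists of other cells were at 0.55 (4 cerebellar), 0.39 (4 neuron), 0.26 (5 astrocyte) and 0.24 (4 serotonin neuron). Oligodendrocyte (3), vascular (3), leptomeningeal (4) and microglia (8) markers were at 0.09, 0.02, -0.26 and -0.29. A median like that of the members was thus not limited to ciliary genes. Members with the lowest r were CFAP52 (-0.60), CFAP251 (-0.55) and SPAG9 (-0.54).

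The relation leaned on the animals at the ends. Without the second progesterone and second estrogen plus progesterone animals, the 2 farthest from the FOXJ1 median (5.65 and 7.63), 7 of 53 members (13.2%) were in the highest 5.01%. Values of r were then 0.71 for RSPH1, 0.56 for TEKT1, 0.49 for SPAG6, 0.45 for CFAP298, 0.48 for DRC3, 0.70 for DRC1 and 0.69 for IFT122. On deviations from group means, which remove the treatments, 16 of 53 (30.2%) were there and RSPH1 stood at 0.93. Leaving out the 3 arrays apart on the first component also gave 16, with RSPH1 at 0.96. ZIC2, a cerebellar granule cell marker, had r = 0.82 with FOXJ1 (rho = 0.80, permutation p = 0.00123, adjusted p = 0.316). The 2 animals with the highest cerebellar markers were the second estrogen and second estrogen plus progesterone animals. Without them, RSPH1 stood at 0.86, TEKT1 at 0.83 and ZIC2 at 0.72. In that setting CBLN1 stood at 0.03, CBLN3 at 0.01 and CA8 at -0.31. With all arrays in, their r had been 0.58, 0.53 and 0.03. Those animals were left out for their high cerebellar markers, so the fall for CBLN1 and CBLN3 was fixed in part by that choice. Without the second progesterone and second estrogen plus progesterone animals, 2 of the 4 cerebellar markers (50%) were in the highest 5.01%. Their median r was then 0.53, beside 0.16 over the members. The part of cerebellar tissue in the FOXJ1 pattern was not tested. Of the 16 further axoneme genes, 3 were in the highest 5.01%: HYDIN, a central apparatus protein (0.79), PIERCE1 (0.77) and STK36 (0.69). Of that list, 11 of 16 had a positive r (median 0.39). The negative ones were CCDC65 (-0.65), DNAL1 (-0.56), DNAAF5 (-0.27), GAS8 (-0.25) and ODAD3 (-0.23). Without the second progesterone and second estrogen plus progesterone animals, 1 of the 16 (6.25%) was in the highest 5.01%.

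**Figure D5:**
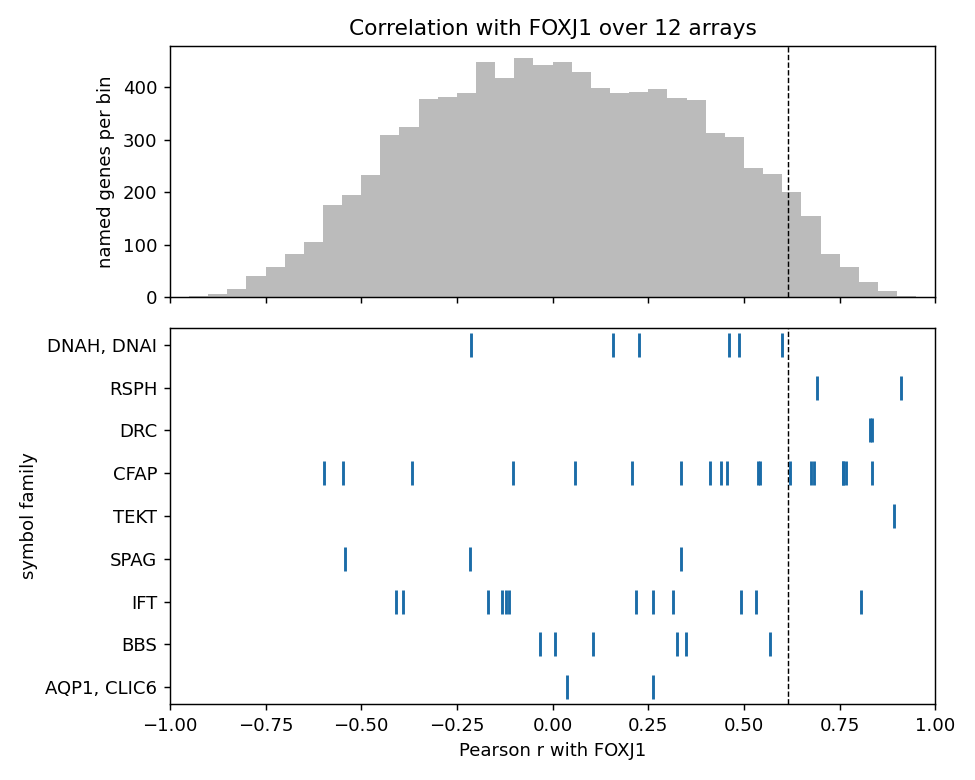
Pearson r with FOXJ1 over 12 animals (horizontal axis): the upper panel counts the 9304 named genes per bin of r, and each tick in the lower panel is 1 of 53 member genes on its brightest probe set, by symbol family (vertical axis). The dashed line is the 95th percentile of the named genes (0.62), and 13 ticks lie beyond it, among them all RSPH, DRC and TEKT ticks and none of BBS.

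Probe sets of the same gene did not always move together. Of 12 members with several probe sets tested, the signs against placebo differed in 3 under estrogen, 3 under both hormones and 5 under progesterone. CFAP97 was at 0.21 under progesterone on its brighter probe set and at -0.44 on the other, and DNAH6 at 0.19 and -0.49. The sources used here do not tell which transcripts of these genes each probe set matches.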

How the data were processed

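RNA from the dorsal raphe of 12 female rhesus monkeys (4 groups of 3) was measured on Affymetrix rhesus arrays, 1 animal per array. The deposited values are linear intensity, 1 per probe set, which the authors had scaled: the mean after trimming 2% at either end was 200.0 on every array. No source used here names the software. Of 52865 probe sets, 99 controls were removed. Values were floored at the 5th percentile (4.96), log2 transformed and quantile normalized. The 26383 probe sets at or above the median mean (intensity 79.5) were tested with limma 3.58.1 in R 4.3.3 (1 mean per group, 8 residual and 3.54 prior degrees of freedom, two-sided, Benjamini-Hochberg, threshold 0.05). The code was tested on simulated data.

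A gene is given on its brightest probe set unless stated. Correlations with FOXJ1 used 100000 permutations of the arrays in Python 3.11.15, two-sided. Gene names came from the array annotation, in which 24956 probe sets have 1 symbol, 361 several and 27449 none. Single genes rest on limma, since 0.1 is the smallest p an exact permutation of 3 animals against 3 can give. Array numbers limit the precision.

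The members, lists and tests were chosen with earlier results of these data known. Named were the genes listed singly, the 5 members with the lowest p in each direction of each comparison, and in each family the 4 with the lowest F test p, the brightest and the dimmest. IFT27, CFAP298, IFT122 and values on dimmer probe sets were named after they were seen. Same-numbered arrays deviated together between placebo and both hormones (correlations of 0.103 to 0.274) and between estrogen and both hormones (0.142 to 0.507). Between placebo and estrogen the correlations were 0.024 to 0.277, and between progesterone and the other groups -0.26 to 0.03. The first arrays of placebo, estrogen and both hormones were also those apart on the first component. The tests above used no pairing, and the replicate number entered only as a block in an alternative fit. No sequences or genomic positions were used.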

Additional observations from a re-analysis of the deposited data

How the results depend on the processing

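The count of members past the threshold was 0 in every contrast and in the F test under every alternative run: median alignment, no normalization between arrays, other filters and floors, brightest probe sets only, 2 groups at a time, trend and robust priors, the replicate block and 12 fits without 1 array. Each group held each replicate number 1 time, so a block by that number could not change the median member differences (-0.17 for progesterone against placebo). The block changed no call of a member. The counts over all probe sets, against which the members were read, were less stable: 35 for progesterone against placebo became 20 with the block and 0 to 66 over the alternatives, and 22 for both hormones against progesterone became 0 to 42. Leaving out 1 array, the median ran from -0.04 to 0.05 for estrogen against placebo, -0.11 to 0.0739 for both hormones against placebo, -0.27 to -0.0104 for progesterone against placebo, -0.11 to 0.0928 for both hormones against estrogen and 0.04 to 0.27 for both hormones against progesterone. Without the 3 arrays apart the medians against placebo were 0.0716 for estrogen and 0.0779 for both hormones, and with a filter at the 75th percentile that of both hormones against progesterone was 0.0298; the cause was not tested. The count of members in the highest 5.01% of r with FOXJ1 was 10 to 14 without 1 array (10 without the second progesterone animal), 14 with median alignment, 15 without normalization and 18 without a filter; these settings were chosen after seeing the data, and FOXJ1 itself falls below a filter at the 75th percentile. Of 2682 differences of 40 named members under alternatives, 89 had the other sign and 0 passed the threshold, and 73 of 120 kept their sign throughout. Settings that alter only the filter, the priors, the block or arrays outside the comparison leave its group means unchanged and could not change a sign. The 2682 include these, so 89 of 2682 does not measure how stable the signs were. The 8 residual degrees of freedom and the dimness of most dynein and CFAP probe sets limit what could be seen.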
